A study of Oryza sativa Japonica Group with 49 samples.

Results

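The drought response of DJ rice seedlings was described from 6 RNA-seq libraries, 3 from seedlings under drought and 3 from seedlings under normal watering, out of 31 RNA-seq libraries and 49 samples in the whole series. The libraries were chosen by their labels alone: genotype DJ (Dongjin, a japonica variety, for which no transgene or mutation is named in the labels), seedlings at the 4-leaf stage, and treatment drought or normal. The series served to find NAC transcription factors that act in drought and heat, and its other libraries come from the japonica variety Zhonghua 11 (ZH11), from lines altered in ONAC023 and from further DJ seedlings under drought or heat that are not used here. Seedlings were raised in pots of sand and paddy soil under natural conditions, and per the labels water was withheld for 7 days until the relative soil water content was below 10%. The study's methods give the drought for RNA extraction as days spent below that water content, a different measure from the time without water in the labels. The tissue label names the seedling and no organ, and the time of day of harvest is not given in the sources used here. The labels number the 3 libraries of a group, and per the study's methods RNA came from several seedlings of each of 3 repeats of the treatments.

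Drying soil raises abscisic acid (ABA) in rice leaves. The hormone is made from carotenoids by 9-cis-epoxycarotenoid dioxygenases, its receptors inhibit group A protein phosphatases 2C, and the SnRK2 kinases that those phosphatases hold back then activate bZIP transcription factors, which switch on late embryogenesis abundant (LEA) proteins and other protectants while stomata close and leaf growth and photosynthesis slow down. NAC and AP2/ERF factors form further arms of this network, and prolonged drought brings on leaf senescence, in which chlorophyll is broken down and nitrogen is moved out of the leaf.

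The files held estimated read counts for 55986 gene models, of which 33377 had at least 1 count in these 6 libraries. Total counts ran from 41956554 to 59873534 in the normal libraries and from 39789339 to 43246569 in the drought libraries. Log-scale levels correlated across genes at 0.981 to 0.988 between libraries of the same group and at 0.693 to 0.739 between groups. Drought libraries showed 19206, 18985 and 19093 genes at 1 CPM (counts scaled to a common library total) or more, against 20192, 20502 and 20714 in normal libraries. The drought libraries were lower without overlap (exact permutation test over libraries, two-sided, p = 0.10, the smallest that 3 against 3 allows). Fewer cells of a type and less RNA per cell cannot be told apart in such bulk samples.

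Most of the genes tested differed between drought and normal seedlings. Of 24257 genes tested, 13186 (54.4%) were called, with an adjusted p under 0.05 (edgeR quasi-likelihood test, Benjamini-Hochberg over all genes tested) and a fold change over 2, and 6118 (25.2%) of the genes tested rose while 7068 (29.1%) fell. Another 5650 genes passed the adjusted p with a smaller change. Changes over 16-fold were found for 1255 genes that rose and 924 that fell. The median log2 fold change over all genes was -0.14. Which direction was more frequent depended on the scaling: TMM (trimmed mean of M-values) factors were 1.16 to 1.24 in normal and 0.80 to 0.87 in drought libraries, and with library totals alone 4353 genes rose and 10066 fell, while DESeq2 called 7097 higher and 6876 lower. Without TMM the median of all genes moved by -0.54 on the log2 scale and with upper quartile scaling by -0.23, and no gene was called in opposite directions under these settings and the TMM scaling.

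The functional lists hold genes that the study's supplementary tables annotate, 621 genes in 42 lists, of which 583 passed the filter on low counts and were tested. These tables are mostly gene lists from other experiments of the study, so a list is a sample of its family and its genes were more often called than others: of the 3266 annotated genes tested, 37.8% rose and 40.9% fell. List counts below are to be read beside these shares, and a split near them is no result about the list. Levels are given per library as TMM-scaled CPM, always in the order of replicates 1, 2 and 3, and changes as the fitted log2 ratio of drought to normal ± its standard error (n = 3 libraries a group). Where a gene had few counts in 1 group this error can be too small, and ± then does not give the precision of the change. By the TMM-scaled levels, all drought libraries stood above all normal libraries for 38.1% of the genes tested and below them for 43.4%. This held, in the direction of its call, for each of the 154 called genes among the 169 that are named here with values. The named genes were chosen mainly by small p, large change or high level, which favours such separation.

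**Figure D1:**
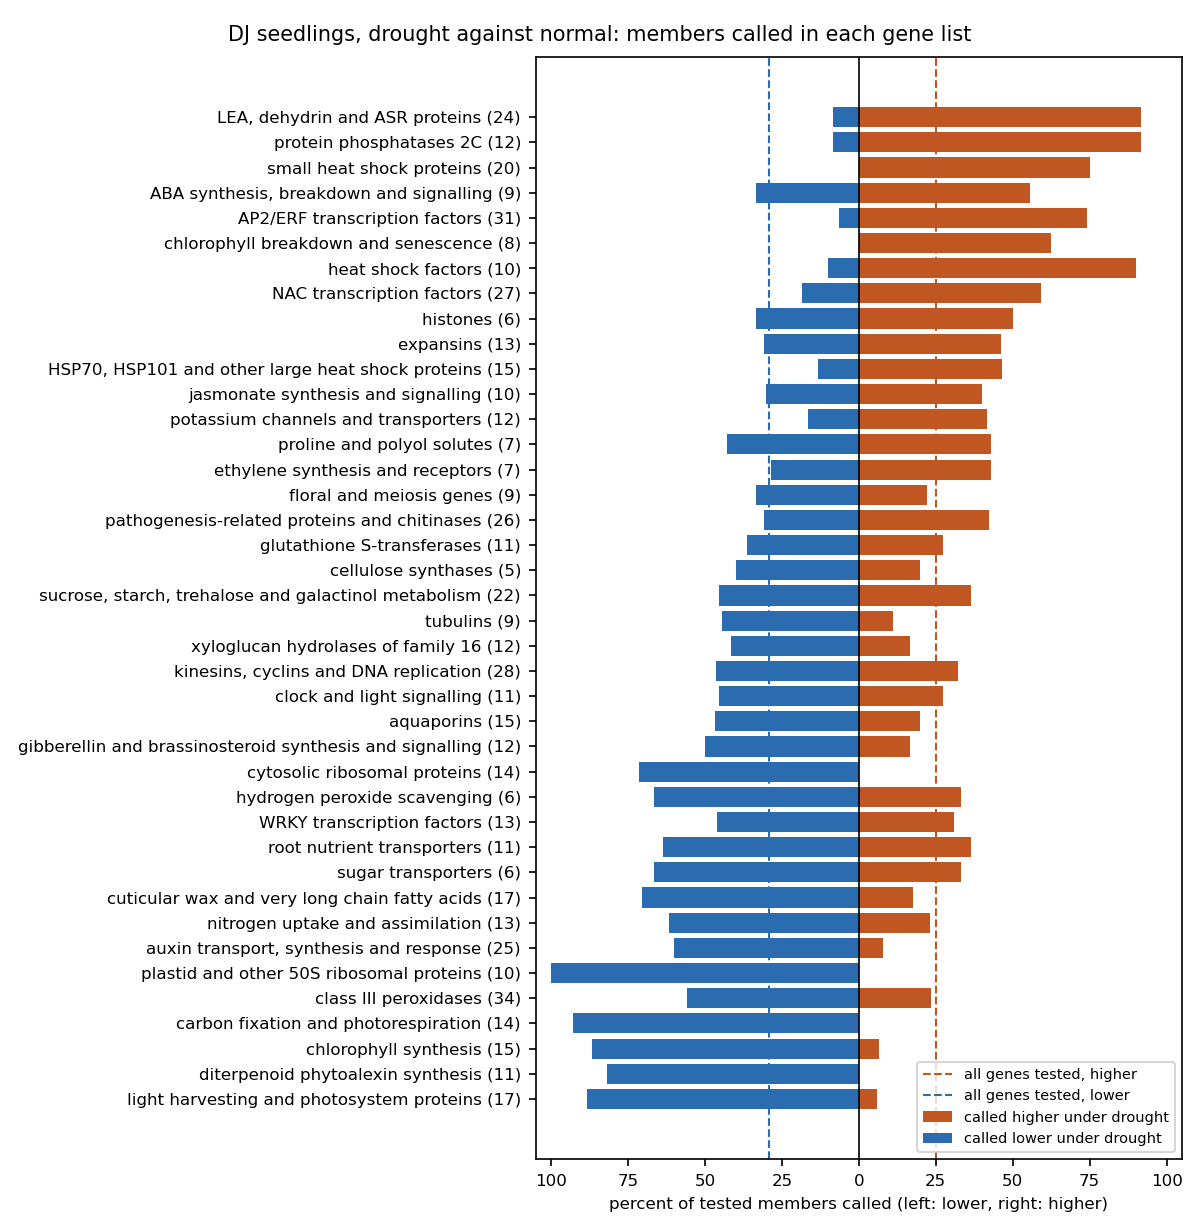
Percent of tested members called higher (right, orange) or lower (left, blue) under drought in 40 gene lists of at least 5 tested members, ordered by median log2 fold change, with the number tested in brackets. Dashed lines mark the percent over all 24257 genes (25.2% higher, 29.1% lower). The shares over annotated genes, beside which lists are to be read, were 37.8% higher and 40.9% lower and are not drawn. LEA proteins and protein phosphatases 2C lie at the top and light harvesting proteins at the bottom.

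LEA proteins, small hydrophilic proteins that protect membranes and enzymes in drying cells and seeds, had the highest median change of the 42 lists. Of 24 tested LEA, dehydrin and abscisic stress-ripening (ASR) genes, 22 rose and 2 fell, with a median log2 fold change of 12.02, or 10.72 when the 5 genes without a count in the normal libraries are set to their lower bounds. Together the list took 0.0979%, 0.0987% and 0.110% of all counts in the normal libraries and 3.45%, 4.73% and 4.22% in the drought libraries, a mean of 4.13% ± 0.646 (SD, n = 3) against 0.102% ± 0.00701. Rab16A (LOC_Os11g26790), a dehydrin long used as an ABA marker, was at 0.942, 0.123 and 0.231 CPM under normal conditions and at 15086, 24339 and 20976 CPM under drought, where it took 1.31%, 1.95% and 1.71% of the counts. OsLEA3 (LOC_Os05g46480), a group 3 LEA protein, stood at 1.06, 0.274 and 0.479 CPM in the normal and 6245, 9451 and 8512 CPM in the drought libraries. The drought values of both genes lay far above every normal value, and no gene had a higher count in a drought library than Rab16A and then OsLEA3. The log2 fold change was 15.62 ± 0.71 for Rab16A (adjusted p = 1.3e-07) and 13.77 ± 0.53 for OsLEA3 (adjusted p = 5.3e-08), and without normal replicate 1 these were 16.81 and 14.40.

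Other LEA genes rose from near 0. The dehydrin OsLEA25 (LOC_Os11g26570) had 0.184, 0 and 0 CPM under normal conditions and 2632, 4284 and 3595 CPM under drought. The dehydrin LOC_Os11g26780, next to Rab16A (LOC_Os11g26790) by locus number, was at 0.348, 0.260 and 0.284 CPM and 3250, 4834 and 4270 CPM, a change of 13.76 ± 0.31. OsLip9 (LOC_Os02g44870), another dehydrin, was already well detected before drought, at 26.8, 24.8 and 20.3 CPM in normal and 4590, 5751 and 5644 CPM in drought libraries (7.80 ± 0.23, adjusted p = 2.0e-08). WSI18 (LOC_Os01g50910) rose from 0.942, 0.877 and 0.887 CPM to 1943, 2517 and 2111 CPM and LOC_Os04g49980, a group 1 LEA gene, changed by 12.37 ± 0.24. The ASR genes, small proteins that bind zinc, included the members that fell. OsASR3 (LOC_Os02g33820) was at 52.8, 59.2 and 59.8 CPM and fell to 13.2, 12.5 and 15.5 CPM, and the ASR gene LOC_Os11g06720 (ASR5 or OsASR2 in the tables) went from 748, 714 and 798 CPM to 353, 339.7 and 309 CPM. These were the 2 members that fell, with log2 changes of -2.06 and -1.17. In a test against a 2-fold change rather than 0 the second of them was lost (edgeR glmTreat, adjusted p = 0.059).

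ABA synthesis and signalling genes moved in both directions. Of 9 tested members of this list 5 rose and 3 fell. OsNCED3 (LOC_Os03g44380), a 9-cis-epoxycarotenoid dioxygenase that makes the ABA precursor xanthoxin, was at 3.48, 3.93 and 3.58 CPM in normal and at 219, 285 and 291 CPM in drought libraries (6.17 ± 0.16, adjusted p = 1.4e-08). OsNCED4 (LOC_Os07g05940) rose from 0.901, 0.507 and 1.74 CPM to 556, 761 and 827 CPM. Both genes were low in all normal and high in all drought libraries. The opposite held for LOC_Os02g47510, which the tables name both OsNCED1 and OsCCD4a, a carotenoid cleaving enzyme: it stood at 759, 646 and 633 CPM and dropped to 5.101, 4.68 and 3.24 CPM (-7.29 ± 0.22, adjusted p = 2.0e-08). OsABA2 (LOC_Os03g59610), whose Arabidopsis counterpart converts xanthoxin to abscisic aldehyde, changed by -1.995 ± 0.15. The bZIP factor OsbZIP23 (LOC_Os02g52780), which activates ABA-responsive genes, rose from 23.97, 27.2 and 27.3 CPM to 440.5, 613 and 556 CPM, and so did MODD (LOC_Os03g11550), a repressor of OsbZIP23, with a change of 3.96 ± 0.12. The SnRK2 kinase gene SAPK4 (LOC_Os01g64970) changed by 3.36 ± 0.12.

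Protein phosphatases 2C, among which group A members are the brake on ABA signalling, rose in 11 of 12 tested members, and 1 fell, with a median log2 fold change of 4.10. OsPP2C50 (LOC_Os05g46040) was at 33.3, 33.5 and 34.96 CPM in normal and 733, 807 and 778 CPM in drought libraries. OsPP2C51 (LOC_Os05g49730) had 1.31, 1.22 and 1.85 CPM and 494, 687 and 583 CPM, and OsPP2C68 (LOC_Os09g15670) 7.104, 10.1 and 7.97 CPM and 780.4, 1194 and 989.7 CPM. The spread within a group was narrow beside the gap between groups in all of them. Another member, LOC_Os06g48300, reached 1014, 1363 and 1206 CPM from 4.18, 4.04 and 4.24 CPM (8.17 ± 0.19, adjusted p = 8.0e-09). The member that fell was LOC_Os02g13100, from 44.4, 50.2 and 53.8 CPM to 21.2, 20.6 and 18.6 CPM.

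**Figure D2:**
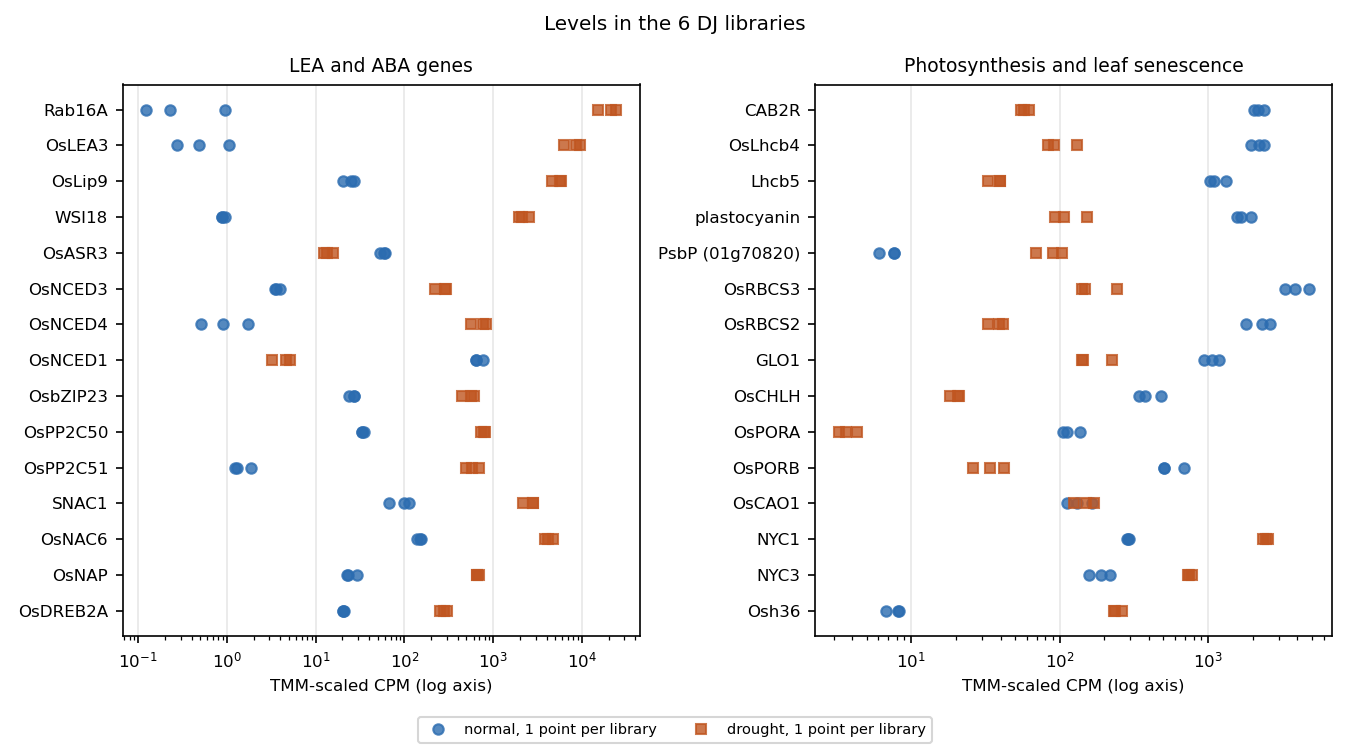
TMM-scaled CPM (log axis) of 30 genes in each of the 3 normal (blue circles) and 3 drought (orange squares) DJ libraries, with ABA and LEA genes on the left and photosynthesis and senescence genes on the right. Groups are separate for every gene drawn except OsCAO1, whose levels ran from 111 to 166 under normal conditions and from 125 to 169 under drought.

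Among transcription factors, NAC genes gave 16 that rose and 5 that fell of 27 tested, and their summed share of the counts went from 0.0614%, 0.0713% and 0.0687% to 0.830%, 0.916% and 0.885%. OsNAC6 (LOC_Os01g66120, also SNAC2), a stress NAC factor, was at 137.3, 149 and 152 CPM in normal and at 3870, 4744 and 4187 CPM in drought libraries (4.87 ± 0.17). SNAC1 (LOC_Os03g60080), known for promoting stomatal closure, stood at 66.4, 97.9 and 113 CPM and 2172, 2773 and 2829 CPM (4.81 ± 0.25). The levels of both genes did not overlap between the groups. OsNAP (LOC_Os03g21060), a regulator of leaf senescence, went from 22.6, 29.3 and 23.2 CPM to 686, 651 and 657 CPM, and OsNAC5 (LOC_Os11g08210) from 93.4, 63.5 and 51.2 CPM to 557, 772 and 689 CPM. ONAC023 (LOC_Os02g12310), the factor that the study is about, had 3 counts over the normal libraries together and 412 over the drought libraries, a ratio of 239 with a 95% counting interval of 81.1 to 1162. Its level under drought was 3.23, 4.78 and 4.17 CPM. Counting intervals here and below take each count as independent and leave out variation between libraries. They are too narrow if a read pair gave 2 counts.

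AP2/ERF genes rose in 23 of 31 tested members and fell in 2, and heat shock factors rose in 9 of 10 and fell in 1. OsDREB2A (LOC_Os01g07120), which binds drought-responsive promoter elements, was at 20.5, 20.9 and 20.3 CPM in normal and 253, 305 and 277 CPM in drought libraries (3.76 ± 0.12, adjusted p = 2.3e-08). OsERF48 (LOC_Os08g31580) changed by 3.06 ± 0.19, while RSR1 (LOC_Os05g03040), a repressor of starch synthesis genes, was at -0.82 and passed the 2-fold threshold only with upper quartile scaling (-1.04) and with library totals alone (-1.36). OsHsfA7 (LOC_Os01g39020) went from 0.778, 1.11 and 1.01 CPM to 193, 239 and 207 CPM, and the heat shock factor that fell was OsHSFA2d (LOC_Os03g06630), from 56.3, 68.0 and 58.2 CPM to 8.60, 22.6 and 22.9 CPM. WRKY factors, many of which act in defence, had 4 higher and 6 lower of 13 tested, beside 37.8% and 40.9% of annotated genes. OsWRKY62 (LOC_Os09g25070) fell from 33.2, 82.2 and 82.3 CPM to 8.60, 6.60 and 4.38 CPM. WRKY60 (LOC_Os03g45450) had 416 counts over the normal and 2 over the drought libraries, a ratio of 120 with a 95% counting interval of 32.9 to 992.

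Small heat shock proteins, which hold unfolding proteins in solution, rose in 15 of 20 tested members and none fell. Oshsp16.9 (LOC_Os01g04370) was at 6.69, 6.48 and 2.29 CPM in normal and at 669, 1037 and 1635 CPM in drought libraries (7.75 ± 0.53, adjusted p = 1.4e-06). OsHSP18.2 (LOC_Os01g08860) started higher, at 171, 179 and 118 CPM, and reached 322, 685 and 798 CPM. For both genes drought replicate 1 was the lowest of its group. Among the large chaperones 7 of 15 rose and 2 fell, 1 of which, OsHSP23.7, carries the name of a small heat shock protein. The DnaK family gene LOC_Os03g16920 went from 8.15, 5.49 and 3.16 CPM to 1545, 1812 and 1892 CPM (8.29 ± 0.38). The HSP70 gene LOC_Os11g47760 had 1726, 1828 and 1315 CPM and 1823, 2014 and 1850 CPM with overlapping groups (0.22 ± 0.16, adjusted p = 0.23). OsBip1 (LOC_Os02g02410), the chaperone of the endoplasmic reticulum, was at -0.80 ± 0.15, and passed the 2-fold threshold with upper quartile scaling (-1.03) and with library totals alone (-1.35). The gene hsp82A (LOC_Os08g39140) was at 0.75 ± 0.28 and passed it at 1.00 without drought replicate 1.

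Genes of photosynthesis were lower under drought. Of 17 tested light harvesting and photosystem genes 15 fell and 1 rose, of 14 carbon fixation and photorespiration genes 13 fell and none rose, and their median log2 fold changes were -3.50 and -2.92. The summed share of the light harvesting list was 1.90%, 1.63% and 1.78% of the counts in the normal and 0.171%, 0.110% and 0.117% in the drought libraries, a ratio of normal to drought of 13.4. For carbon fixation the shares were 1.70%, 1.27% and 1.55% against 0.130%, 0.0926% and 0.101%, a ratio of 13.96. The groups did not overlap for either list (exact permutation test, two-sided, p = 0.10, the smallest possible). CAB2R (LOC_Os01g41710), a chlorophyll a/b binding protein of the photosystem II antenna, was at 2376, 2033 and 2178 CPM in normal and 57.6, 55.3 and 61.7 CPM in drought libraries (-5.24 ± 0.15, adjusted p = 2.0e-08). OsLhcb4 (LOC_Os07g37240) stood at 2379, 1951 and 2195 CPM and 131, 83.3 and 90.9 CPM, and Lhcb5 (LOC_Os11g13890) at 1326, 1037 and 1104 CPM and 39.4, 32.7 and 39.4 CPM. The most negative change in the list was that of the chlorophyll a/b binding gene LOC_Os01g52240, from 188, 139.8 and 226 CPM to 0.134, 0.0943 and 0.150 CPM (-10.48 ± 0.29).

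The electron carrier plastocyanin (LOC_Os06g01210) fell from 1954, 1570 and 1668 CPM to 152, 93.6 and 107 CPM. The small subunit genes of Rubisco, the enzyme that fixes carbon dioxide, included OsRBCS3 (LOC_Os12g19381), which fell from 4753, 3278 and 3850 CPM to 243, 142 and 149 CPM and OsRBCS2 (LOC_Os12g17600), which fell from 2607, 1796 and 2319 CPM to 38.8, 33.2 and 41.7 CPM. The near-identical RBCS copies may share reads, so the split between them is uncertain. GLO1 (LOC_Os03g57220), a glycolate oxidase of photorespiration, changed by -2.65 ± 0.21 and the carbonic anhydrase OsCA1 (LOC_Os01g45274) by -2.49 ± 0.19. The lumenal PsbP gene LOC_Os01g70820 was the one light harvesting list member that rose, from 7.70, 6.08 and 7.70 CPM to 69.6, 103 and 89.98 CPM (3.61 ± 0.17, adjusted p = 1.7e-07).

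**Figure D3:**
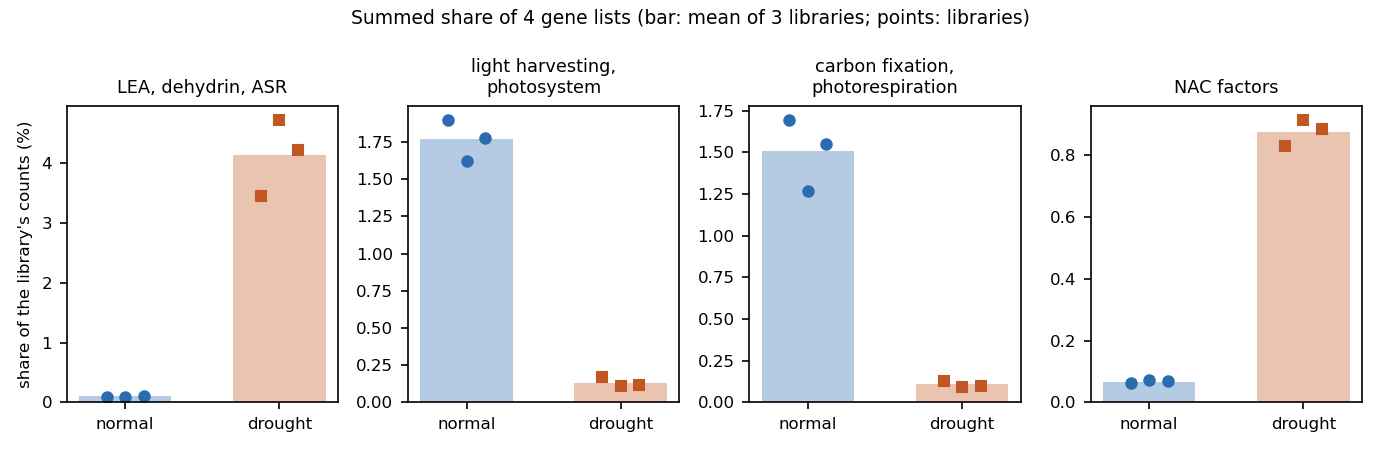
Share of each library's counts (percent, linear axes from 0) taken by 4 gene lists in the normal (blue) and drought (orange) DJ libraries. Bars are means of 3 libraries and points are libraries. LEA, dehydrin and ASR genes went from a mean of 0.102% to 4.13%, while the light harvesting list took at most 0.171% in every drought library against at least 1.63% in every normal one.

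Genes of chlorophyll synthesis and breakdown moved apart. Of 15 tested synthesis genes 13 fell and 1 rose, while of 8 tested breakdown and senescence genes 5 rose and none fell. OsCHLH (LOC_Os03g20700), a subunit of magnesium chelatase, was at 485, 343 and 375 CPM in normal and 20.5, 18.23 and 21.1 CPM in drought libraries (-4.33 ± 0.17). The protochlorophyllide reductase OsPORA (LOC_Os04g58200) went from 113, 104.7 and 138 CPM to 4.33, 3.24 and 3.66 CPM and OsPORB (LOC_Os10g35370) from 689.6, 505 and 505 CPM to 41.9, 26.3 and 34.1 CPM. OsCAO1 (LOC_Os10g41780), which makes chlorophyll b, stood apart from them with 166, 131 and 111 CPM and 125, 151 and 169 CPM (0.13 ± 0.17, adjusted p = 0.51). NYC1 (LOC_Os01g12710), the chlorophyll b reductase that starts chlorophyll b breakdown, rose from 285, 295 and 291 CPM to 2519, 2347 and 2467 CPM (3.07 ± 0.13, adjusted p = 9.2e-08). NYC3 (LOC_Os06g24730), a hydrolase needed for chlorophyll loss, went from 158, 218 and 191 CPM to 735, 743 and 782 CPM. The senescence marker Osh36 (LOC_Os05g39770) changed by 4.98 ± 0.13. OsSAG12-2 (LOC_Os08g44270), a cysteine protease gene, was at 17.3, 30.5 and 20.7 CPM and at 287, 95.7 and 182 CPM, with drought replicate 2 the lowest of its group.

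Ribosomal protein genes were lower under drought. All 10 tested plastid and other 50S ribosomal protein genes were called lower, with a median log2 fold change of -2.08. WLP1 (LOC_Os01g54540), plastid protein L13, was at 241, 185.3 and 212 CPM in normal and 62.1, 32.8 and 36.1 CPM in drought libraries, and PRPL12 (LOC_Os01g47330) at 201, 149 and 191 CPM and 51.8, 31.1 and 38.0 CPM. Of 14 cytosolic ribosomal protein genes 10 fell and none rose, with a median of -1.30. The ribosomal protein S5 gene LOC_Os01g01060 changed by -2.06 ± 0.17, and LOC_Os12g38000, for protein L8, by -0.97 ± 0.13, which was not called. It passed the 2-fold threshold with library totals alone, with upper quartile scaling (-1.19), with no filter on low counts (-1.01), without normal replicate 3 (-1.05) and without drought replicate 1 (-1.02). Genes often used to normalise RNA measurements in rice were lower on this scale: OsACTIN2 (LOC_Os11g06390) fell from 218, 212 and 202 CPM to 71.7, 53.1 and 58.3 CPM (-1.79 ± 0.13), and the log2 change was -1.34 for the actin gene OsAct2 (LOC_Os10g36650), -1.32 for UBQ5 (LOC_Os01g22490), which also counts among the cytosolic ribosomal genes, and -1.01 for UBQ (LOC_Os03g13170). The call for UBQ was lost with RLE scaling (-0.92), with DESeq2 (-0.94), with counts divided by 2 (-0.999), without normal replicate 1 (-0.90) and without drought replicate 2 (-0.97) or 3 (-0.99).

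Growth-related lists were lower or mixed. Of 25 tested auxin genes 15 fell and 2 rose. OsIAA3 (LOC_Os01g13030), a repressor of the auxin response, was at 62.5, 68.1 and 71.3 CPM in normal and 9.16, 8.24 and 7.95 CPM in drought libraries (-2.99 ± 0.11, adjusted p = 4.4e-08). The auxin influx carrier OsAUX1 (LOC_Os01g63770) changed by -2.77 ± 0.15 and OsTARL2 (LOC_Os01g51980) by -2.82 ± 0.14, while the auxin response factor gene LOC_Os02g35140 was at -0.24 and was not called. In the other direction, OsARF16 (LOC_Os06g09660) rose from 5.08, 6.79 and 5.45 CPM to 169, 237 and 218 CPM. For gibberellins, sd1 (LOC_Os01g66100), the biosynthetic oxidase of the green revolution dwarf, fell from 26.1, 14.1 and 8.43 CPM to 0.187, 0.189 and 0.330 CPM (-6.09 ± 0.52), while OsGA2ox6 (LOC_Os04g44150), which inactivates gibberellins, rose by 1.61 ± 0.20. The brassinosteroid enzyme gene OsDWARF4 (LOC_Os03g12660) changed by -3.81 ± 0.24. In the list of these hormones 6 of 12 members fell and 2 rose.

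Cell wall and cell division genes did not move as a block. Expansins, which loosen walls, rose in 6 and fell in 4 of 13 tested members, and with library totals alone in 3 and 4. OsEXPB3 (LOC_Os10g40720) was at 11.6, 15.4 and 19.8 CPM in normal and 0.641, 0.660 and 1.11 CPM in drought libraries. The expansin LOC_Os10g39640 went the other way, from 2.95, 3.41 and 3.34 CPM to 41.5, 71.6 and 61.8 CPM, and EXPLA1 (LOC_Os03g04020) was at 0.69 ± 0.10, under 2-fold. Members of the family thus rose, fell or were not called. OsCesA8 (LOC_Os07g10770), a cellulose synthase, fell from 162, 185.2 and 253 CPM to 27.99, 26.5 and 32.2 CPM. Of 9 tubulin genes 4 fell and 1 rose (LOC_Os03g11970, 1.52 ± 0.093, or 0.97 and no call with library totals alone), and OsTubA1 (LOC_Os03g51600) was at -0.37 ± 0.14. In the list of kinesins, cyclins and DNA replication 13 of 28 fell and 9 rose, against 7 that fell when genes under 1 log2 CPM were left out. Of annotated genes 40.9% fell and 37.8% rose. The kinesin LOC_Os05g33030 rose from 2.42, 1.84 and 1.76 CPM to 40.3, 58.7 and 56.05 CPM. OsCDT1 (LOC_Os06g05120) was at -2.47. This name also belongs to a cadmium tolerance protein, and the tables give the gene no function.

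Water and ion transport genes changed unevenly. Of 15 aquaporins, which carry water across membranes, 7 fell and 3 rose, beside 40.9% and 37.8% of annotated genes. OsPIP2;7 (LOC_Os09g36930) was at 1461, 1390 and 1349 CPM in normal libraries and fell to 70.2, 62.8 and 47.4 CPM (-4.54 ± 0.18, adjusted p = 6.7e-08). OsPIP1;3 (LOC_Os02g57720) went from 92.7, 79.99 and 73.3 CPM to 16.96, 13.3 and 15.3 CPM. Of other plasma membrane aquaporins OsPIP1;2 (LOC_Os04g47220) was at 0.45 ± 0.11, with each drought library above the normal ones, and OsPIP1;1 (LOC_Os02g44630) was at -0.14 ± 0.14 with overlapping groups, neither past 2-fold. OsTIP3;1 (LOC_Os10g35050), a vacuolar aquaporin, rose from 0, 0.0822 and 0 CPM to 14.98, 26.3 and 23.2 CPM. Among potassium transport genes 5 of 12 rose and 2 fell, beside 37.8% and 40.9% of annotated genes. The vacuolar channel gene OsTPKb (LOC_Os07g01810) changed by 5.23 ± 0.20 and the outward channel gene OsGORK (LOC_Os06g14030) by 2.516 ± 0.21, while OsAKT2 (LOC_Os05g35410) changed by -3.10 ± 0.16.

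Genes of carbohydrate metabolism changed in both directions. Of 22 tested genes of sucrose, starch, trehalose and galactinol metabolism 8 rose and 10 fell, near the 37.8% and 40.9% of annotated genes. OsGolS2 (LOC_Os07g48830), a galactinol synthase of the raffinose pathway, was at 9.42, 10.7 and 7.79 CPM in normal and 1185, 1657 and 1426 CPM in drought libraries (7.25 ± 0.22, adjusted p = 2.3e-08). OsGolS1 (LOC_Os03g20120) rose from 13.3, 13.8 and 16.1 CPM to 705, 983 and 891 CPM, and the trehalase OsTRE1 (LOC_Os10g37660) from 2.01, 2.36 and 1.99 CPM to 256, 332 and 291 CPM. The neutral invertase gene OsNIN1 (LOC_Os03g20020) changed by 4.38 ± 0.14. Of genes of starch metabolism, Pho2 (LOC_Os01g63270), a glucan phosphorylase, fell from 571, 455 and 488 CPM to 77.1, 67.01 and 73.5 CPM, the starch synthase gene SSIIB (LOC_Os02g51070) changed by -3.15 and OsAPL1 (LOC_Os03g52460), a subunit of ADP-glucose pyrophosphorylase, by -2.62. Of 6 tested sugar transporters 2 rose, the sucrose transporter OsSUT1 (LOC_Os03g07480, 1.97 ± 0.11) and OsMST6 (LOC_Os07g37320, 2.27 ± 0.19), and 4 fell, among them OsTMT1 (LOC_Os10g39440, -1.64 ± 0.092).

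**Figure D4:**
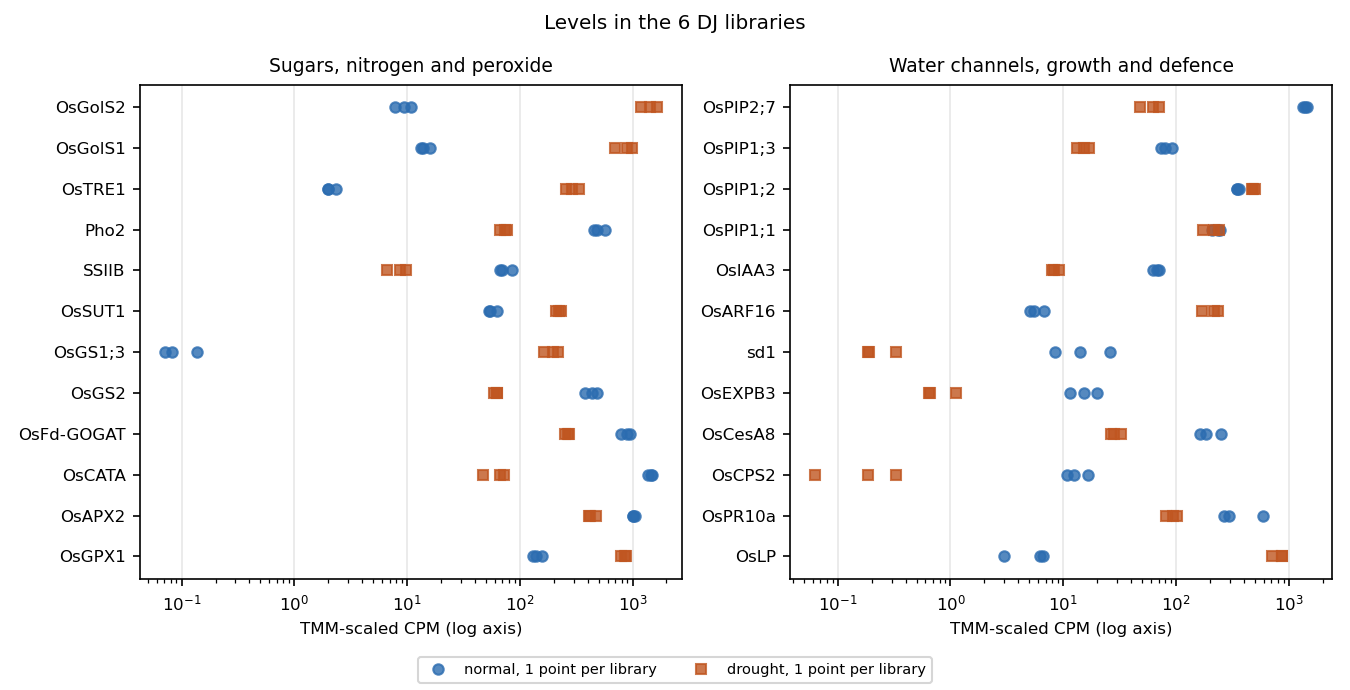
TMM-scaled CPM (log axis) of 24 genes in each of the 3 normal (blue circles) and 3 drought (orange squares) DJ libraries, with sugar, nitrogen and peroxide metabolism on the left and water channels, growth and defence on the right. Groups overlap only for OsPIP1;1, which changed by -0.14 on the log2 scale, and OsGS1;3 shows the widest gap drawn.

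Glutamine synthetase genes changed in opposite directions. Of 13 tested genes of nitrogen uptake and assimilation 8 fell and 3 rose. OsGS1;3 (LOC_Os03g50490), a cytosolic glutamine synthetase, was at 0.0819, 0.137 and 0.0710 CPM in normal and 162, 217 and 196 CPM in drought libraries (10.86 ± 0.23, adjusted p = 6.4e-09). OsGS2 (LOC_Os04g56400), the plastid enzyme that recovers photorespiratory ammonia, fell from 480.1, 377 and 441 CPM to 63.3, 59.1 and 62.3 CPM. Its partner OsFd-GOGAT (LOC_Os07g46460) changed by -1.73 ± 0.13, and the asparagine synthetase gene OsASN1 (LOC_Os03g18130) by 3.38 ± 0.46, or 4.06 without normal replicate 3. Among genes of proline and polyol solutes 3 of 7 rose and 3 fell, beside 37.8% and 40.9% of annotated genes. OsPEAMT1 (LOC_Os01g50030), a phosphoethanolamine methyltransferase on the path to choline, rose from 213, 224 and 179 CPM to 1152, 1353 and 1232 CPM, while its paralogue OsPEAMT2 (LOC_Os05g47540) fell from 363, 186 and 166 CPM to 4.01, 3.05 and 4.38 CPM. The inositol oxygenase OsMIOX (LOC_Os06g36560) changed by 4.73 ± 0.14 and the proline transporter OsProT1 (LOC_Os01g68050) by -4.20 ± 0.22.

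Of 6 genes that remove hydrogen peroxide, 2 rose and 4 fell. The catalase OsCATA (LOC_Os02g02400) was at 1380, 1493 and 1460 CPM in normal and 66.9, 72.5 and 47.02 CPM in drought libraries (-4.54 ± 0.20, adjusted p = 9.0e-08). OsAPX2 (LOC_Os07g49400), a cytosolic ascorbate peroxidase, fell from 1007, 1043 and 1004 CPM to 476, 411 and 423 CPM and the peroxiredoxin gene BAS1 (LOC_Os02g33450) changed by -2.20. The glutathione peroxidase OsGPX1 (LOC_Os04g46960) rose from 131, 156 and 140.3 CPM to 787, 855 and 877 CPM. Of 34 tested class III peroxidases, secreted enzymes that work on cell walls, 19 fell and 8 rose. POX22.3 (LOC_Os07g48020) fell from 26.8, 72.8 and 51.04 CPM to 0.534, 0.251 and 0.270 CPM, LOC_Os01g22370 changed by 1.501 ± 0.13, a call lost with library totals alone at 0.95, and LOC_Os04g51300 was at -0.75 ± 0.20, or at -1.29 and called with library totals alone. With library totals alone 4 members of this list were called higher and 22 lower.

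Cuticular wax and very long chain fatty acid genes, which seal the leaf surface, fell in 12 of 17 tested members and rose in 3. OsGL1-6 (LOC_Os02g56920), a wax synthesis gene, was at 33.4, 30.6 and 68.0 CPM in normal and at 0, 0 and 0.390 CPM in drought libraries. ONI1 (LOC_Os03g08360), a 3-ketoacyl-CoA synthase of shoot epidermis, fell from 113, 111 and 159.8 CPM to 28.8, 25.8 and 31.7 CPM. A gene of the same enzyme family, LOC_Os02g11070, rose from 31.5, 62.4 and 72.1 CPM to 196, 389.5 and 244 CPM.

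Defence genes were not uniform. Diterpenoid phytoalexin synthesis, which makes the antimicrobial momilactones and phytocassanes, fell in 9 of 11 tested genes and rose in none. OsCPS2 (LOC_Os02g36210), which commits to phytocassanes, was at 16.7, 10.9 and 12.4 CPM in normal and 0.187, 0.0629 and 0.330 CPM in drought libraries (-6.07 ± 0.38, or -6.66 without drought replicate 3). OsCPS4 (LOC_Os04g09900), the entry to momilactones, changed by -4.65 ± 0.39 and CYP99A2 (LOC_Os04g10160) of the same pathway by -4.09 ± 0.42. All drought values of these genes lay under 1 CPM. Pathogenesis-related proteins and chitinases rose in 11 and fell in 8 of 26 tested members, beside 37.8% and 40.9% of annotated genes. OsPR10a (LOC_Os12g36880) fell from 297, 591 and 268 CPM to 93.2, 101.1 and 82.2 CPM. The thaumatin-like OsLP (LOC_Os03g46060) rose from 6.24, 6.60 and 2.999 CPM to 703, 870.0 and 868 CPM, and the chitinase gene LOC_Os05g33140 from 0.0614, 0.192 and 0.373 CPM to 215, 223 and 331 CPM. The split of this list was 9 higher and 11 lower without TMM.

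Jasmonate and ethylene genes were mixed. Of 10 jasmonate genes 4 rose and 3 fell, beside 37.8% and 40.9% of annotated genes. The repressor genes OsJAZ12 (LOC_Os10g25290) and OsJAZ10 (LOC_Os03g08330) changed by 4.46 ± 0.26 and 2.91 ± 0.35. OsLOX1 (LOC_Os03g49380), a lipoxygenase, rose from 23.75, 32.01 and 33.1 CPM to 277, 322 and 266 CPM, whereas the plastid lipoxygenase LOC_Os12g37260 fell from 471, 808 and 321 CPM to 36.2, 45.9 and 25.2 CPM. Of 7 tested ethylene genes 3 rose and 2 fell, with a median of 0.53 that became -0.02 without TMM. The receptor gene ETR3 (LOC_Os02g57530) changed by -2.51 ± 0.16 and the ethylene-forming oxidase LOC_Os04g10350 by 3.02 ± 0.19.

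In the list of clock and light signalling 5 of 11 genes fell and 3 rose, beside 40.9% and 37.8% of annotated genes. The morning clock factor OsLHY (LOC_Os08g06110) was at 2.89, 1.86 and 2.59 CPM in normal and 77.6, 109 and 139 CPM in drought libraries (5.48 ± 0.26, adjusted p = 1.6e-07). OsPRR37 (LOC_Os07g49460), a pseudo-response regulator of the clock, fell from 145, 127 and 141 CPM to 52.8, 43.6 and 36.6 CPM. OsCOL16 (LOC_Os06g15330) and the phytochrome-interacting factor OsPIL13 (LOC_Os03g56950) changed by -4.25 ± 0.31 and -4.12 ± 0.18. The hour of harvest is not given in the sources used here, so its part in the levels of clock genes was not tested.

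The labels call the material seedlings. Leaf transcripts were present in all 6 libraries, light harvesting genes, OsRBCS2 and OsRBCS3 among them. Genes of the root nutrient transporter list were detected as well: their summed share ran from 0.0257% to 0.0354% in normal and from 0.0255% to 0.0277% in drought libraries (exact permutation test, two-sided, p = 0.20), and with TMM scaling the drought sum was the higher one. In this list 4 of 11 rose, among them OsHMA2 (LOC_Os06g48720, 4.90 ± 0.27), TOM3 (LOC_Os11g04104, 3.60 ± 0.13) and Lsi1 (LOC_Os02g51110, 2.73 ± 0.20), and 7 fell, among them OsPT1 (LOC_Os03g05620, -2.20 ± 0.23) and OsNAAT1 (LOC_Os02g20360, -2.29 ± 0.13). OsNAAT1 is an aminotransferase and not a transporter. OsNRAMP5 was the one listed member without a count in any drought library. The part of root RNA in these results was not tested. Floral and meiosis genes summed to 0.00512% to 0.00549% in normal and 0.00324% to 0.00334% in drought libraries, with 2 of 9 higher, HEI10 (LOC_Os02g13810) and DPW (LOC_Os03g07140), and 3 lower, among them MEICA1 (LOC_Os03g05040) and OsMSH4 (LOC_Os07g30240). None of these 9 was without counts in all libraries.

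Genes of other functions were among those with the smallest p-values of the genes with a name. OsADF3 (LOC_Os03g60580), an actin-depolymerising factor, rose from 3.64, 3.08 and 2.57 CPM to 1426, 1731 and 1648 CPM (9.01 ± 0.22, adjusted p = 8.9e-09). OCPI1 (LOC_Os01g42860), a proteinase inhibitor, rose from 1.33, 1.85 and 1.296 CPM to 1341, 1908 and 1654 CPM, and SLAC7 (LOC_Os01g28840), of the slow anion channel family, from 0.532, 0.329 and 0.390 CPM to 134, 144 and 165 CPM. Metallothioneins, small metal-binding proteins, went both ways. OsMT-II-1a (LOC_Os10g39610) changed by 12.13 ± 0.30, or 12.84 without normal replicate 2, and OsMTI2B (LOC_Os01g74300) by -4.02 ± 0.12, from 583, 576 and 595 CPM to 33.8, 37.7 and 36.7 CPM. OsAld-Y (LOC_Os06g40640), a fructose-bisphosphate aldolase, OsHAP5C (LOC_Os03g14669), a subunit of the NF-Y factor, and OsBLE2 (LOC_Os07g45570), a brassinosteroid-responsive gene, all fell, with log2 changes of -4.18, -4.21 and -5.87. OsFPFL4 (LOC_Os04g21350), a flowering promoting factor-like gene, went from 68.8, 86.9 and 54.6 CPM to 0.107, 0.251 and 0.210 CPM.

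Some genes had almost no counts under one condition. In 54 genes each normal library had at most 3 counts and each drought library at least 100, and in 61 genes the reverse held, a count that was 94 without drought replicate 1. The first set had 28 annotated genes, 6 of which were on the LEA list. That list had 24 tested genes, beside 3266 annotated genes tested. A seed maturation protein gene, LOC_Os01g46600, had 3 counts over the normal libraries and 143580 over the drought libraries, a ratio of 83137 with a 95% counting interval of 28447 to 403145. The group 1 LEA gene LOC_Os08g23870, without a count in the normal libraries, was at 521, 688 and 434 CPM under drought, at least 32350-fold higher when 3 counts over the group are taken as the floor. By the same floor the dehydrin LOC_Os11g26750 was at least 21629-fold higher and LOC_Os01g52830, a DUF1264 protein, at least 10912-fold higher. A lipid transfer family gene, LOC_Os04g33920, was at 0, 0.0548 and 0.0887 CPM and 1511, 1406 and 1531 CPM, and the group 3 LEA gene LOC_Os04g52110 at 0.0409, 0.0411 and 0 CPM and 312, 506 and 365 CPM. Genes without a count under drought were a carboxyl-terminal peptidase, LOC_Os01g74160, at 18.3, 31.7 and 15.4 CPM in normal libraries and at least 781-fold lower under drought, a peroxidase, LOC_Os06g20150, at least 418-fold lower, and a nodulin, LOC_Os03g05530, at least 233-fold lower. A cytochrome P450, LOC_Os03g45619, fell from 75.8, 109.7 and 171 CPM to 0.187, 0.126 and 0.300 CPM.

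Genes that the study follows around ONAC023 were measured in the same libraries, and they were chosen by the study on related samples. OsFKBP20-1b (LOC_Os01g62610), a splicing-related peptidyl-prolyl isomerase, rose from 0.287, 0.425 and 0.390 CPM to 21.2, 18.7 and 17.3 CPM (5.67 ± 0.20, adjusted p = 3.6e-08). PGL3 (LOC_Os03g03990), the chloroplast signal recognition particle protein that delivers light harvesting proteins, fell from 51.4, 40.2 and 43.9 CPM to 3.15, 2.33 and 2.5203 CPM, and the log2 change of the splicing factor 3B subunit gene LOC_Os02g05410 was -1.35. With OsPIP2;7, ONAC023 and Rab16A included, 5 of these 11 genes fell and 3 rose, beside 40.9% and 37.8% of annotated genes. The isomerase LOC_Os01g02080 and the RNA helicase LOC_Os02g55260 changed by -4.77 ± 0.23 and -2.81 ± 0.19. OsREM1.5 (LOC_Os04g45070), a remorin of the plasma membrane, had 590.1, 602 and 625 CPM and 1017, 862 and 934 CPM, above in each drought library but under 2-fold (0.63 ± 0.12). OsPhyA (LOC_Os03g51030) was at -0.77 ± 0.093, or at -1.32 and called with library totals alone, and OsAPT2 (LOC_Os04g42520) was at 0.0011 ± 0.22 with overlapping groups.

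The drought response of ZH11 seedlings, with 3 drought and 3 normal libraries of its own, was measured in the same table. In ZH11 43.1% of 24797 genes tested were called, of which 6506 (26.2% of those tested) rose and 4187 fell. The difference of the responses, DJ minus ZH11, was called for 12464 of 25754 genes (48.4%), with DJ higher for 5206 (20.2%) and lower for 7258 (28.2%). The most frequent low count was 2 in the DJ and ZH11 drought libraries and 4 in the ZH11 normal libraries, and this difference in counting and the difference between the lines cannot be told apart. With each library's counts divided by its most frequent low value, the difference was called for 11726 genes, 4972 with DJ higher and 6754 with DJ lower. Shares over annotated genes were taken for DJ alone, so ZH11 and difference counts have only the shares over all genes beside them. Annotated genes were more often called than others in DJ, and whether this holds here was not tested. The LEA list had 22 of 24 members higher in DJ and 24 of 24 in ZH11, and carbon fixation had 13 of 14 lower in DJ and 12 of 14 in ZH11. DJ went lower than ZH11 in all 10 plastid and other 50S ribosomal genes and in 13 of 14 cytosolic ribosomal genes, and of the latter 10 fell in DJ and 5 rose in ZH11.

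All 11 diterpenoid phytoalexin genes were called with the DJ response lower, and 9 fell in DJ while 11 rose in ZH11. Pathogenesis-related genes and chitinases were called lower in DJ in 23 of 28 tested members and higher in 2, and cuticular wax genes lower in 14 of 17 and higher in 1. DJ went higher than ZH11 in 10 of 13 protein phosphatases 2C, 18 of 33 AP2/ERF genes and 14 of 24 LEA genes. Over all genes tested DJ was higher for 20.2% and lower for 28.2%, and these shares were not taken over annotated genes. For the clock list 2 genes were called each way.

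**Figure D5:**
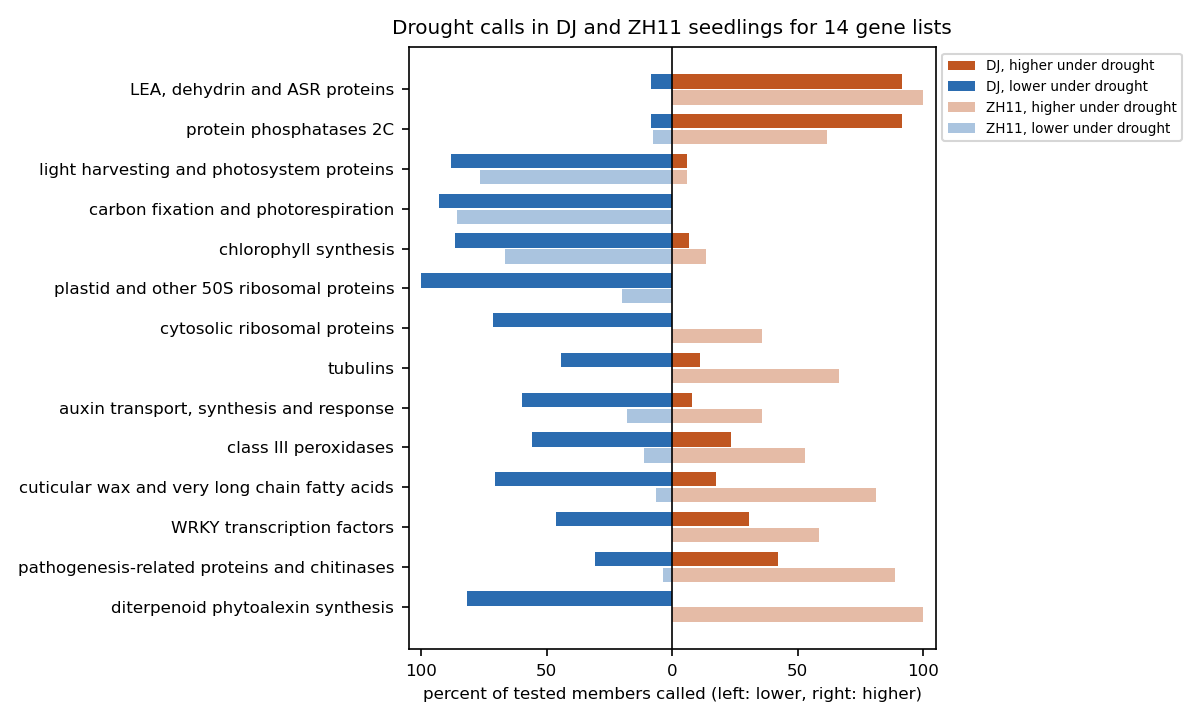
Percent of tested members called higher (right, orange) or lower (left, blue) under drought in 14 gene lists, for DJ (full colour) and ZH11 (pale), each against its own normal libraries. LEA and photosynthesis lists point the same way in both varieties, while all 11 phytoalexin genes rose in ZH11 and 9 of 11 fell in DJ. Shares over annotated genes were not taken for ZH11.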

How the data were processed

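RNA-seq of DJ seedlings (3 drought, 3 normal libraries) was taken from the authors' deposited table of estimated counts per gene, which held whole numbers. The submitters' processing notes name HISAT2, StringTie and DESeq2, while the study's methods name STAR for alignment and MSU v7.0 gene models. Whether counting used strand is not given in the sources used here, so overlapping and near-identical genes are uncertain. All DJ libraries and ZH11 drought libraries had 2 as their most frequent low count, and ZH11 normal libraries had 4. A second table of counts was not used here, and no per-sample column was left unmapped.

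Counts were tested with edgeR 4.0.16 (R 4.3.3): filterByExpr, TMM factors, quasi-likelihood F-test over the 6 DJ libraries, Benjamini-Hochberg adjustment over all genes tested, called at an adjusted p under 0.05 and a fold over 2. Standard errors were taken as the size of the log2 change over the root of its F statistic. The DJ and ZH11 responses were compared by an interaction term over 12 libraries. On simulated counts with 200 genes changed 4-fold, 183 were recovered with 7 false calls for the DJ contrast (23873 genes), and 129 with 9 for the interaction (25133 genes). These 200 genes were split evenly between higher and lower. The simulation thus gives no error rate for a shift as broad as in the data, where 54.4% of genes were called. Intervals and floors cover counting error only and take each count as independent. The intervals are too narrow if the most frequent low count of 2 means that a read pair gave 2 counts. Where a group had no count, the floor was 3 counts over the group.

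Gene lists were drawn by keyword from the study's supplementary tables. The lists and their member genes were chosen with earlier results of these data known. Named genes were, per list, up to 5 of highest mean CPM and up to 3 called genes of smallest p in each direction, then in each direction the 12 named genes of smallest p, the 8 of largest change with a mean of at least 10 CPM, up to 5 annotated genes nearly without counts in 1 condition, and the genes the study names. This gave 326 genes, of which 169 are printed with values, a choice made after their values were seen. Alternatives were RLE, upper quartile and no scaling factors (the last chosen after seeing the data), other count filters, DESeq2 1.42.0, edgeR glmTreat, counts divided by 2, a joint fit, a replicate block and each library left out. For the DJ and ZH11 difference a further alternative divided each library's counts by its most frequent low value. Promoter and protein sequences were not used here. Figures were drawn with matplotlib 3.10.9.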

Additional observations from a re-analysis of the deposited data

Results flagged for a closer look

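The drought responses of DJ and ZH11 seedlings differed by a test of the difference itself (edgeR interaction term, adjusted p under 0.05 and over 2-fold) for 12464 of 25754 genes. Line, experiment and the counting of read pairs cannot be told apart in this comparison. Among the 169 genes named with values, 17 were called in opposite directions in the 2 lines. These genes were chosen mainly by small p, large change or high level in DJ. Opposite calls were not counted over all genes tested, so neither this number nor its split by direction has a background. One of them, OsCPS4 (LOC_Os04g09900), which makes momilactones, fell in DJ from 1753 to 39 counts over the 3 libraries of a group and rose in ZH11 from 0 to 4942, so its fitted difference is no measure of size and is not given.

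In 15 of the other 16 DJ fell and ZH11 rose. The log2 difference, DJ minus ZH11, was -3.61 for OsASR3 (LOC_Os02g33820) and -2.84 for the ASR gene LOC_Os11g06720. It was -10.2 for OsWRKY62 (LOC_Os09g25070) and -6.35 for OsPORA (LOC_Os04g58200), a protochlorophyllide reductase. The cellulose synthase OsCesA8 (LOC_Os07g10770) gave -4.86, and the wax genes OsGL1-6 (LOC_Os02g56920) and ONI1 (LOC_Os03g08360) gave -15.77 and -4.06. Of the defence genes, OsCPS2 (LOC_Os02g36210) and CYP99A2 (LOC_Os04g10160) were at -12.28 and -12, OsPR10a (LOC_Os12g36880) at -4.15 and the lipoxygenase LOC_Os12g37260 at -6.42. Of the transport and nutrition genes, OsProT1 (LOC_Os01g68050) was at -5.7, OsPT1 (LOC_Os03g05620) at -3.81 and OsNAAT1 (LOC_Os02g20360) at -6.84. The cytochrome P450 gene LOC_Os03g45619 was at -18.3. The lowest group totals of OsWRKY62, OsGL1-6, OsCPS2, CYP99A2 and this P450 gene were 18, 13, 20, 12 and 21 counts. For these genes the direction can be read and the size of the difference is uncertain. The DJ change of OsGL1-6 alone ran from -14.10 to -7.78 with a library left out. In the other direction, the silicon channel Lsi1 (LOC_Os02g51110) rose in DJ and fell in ZH11, with a difference of 5.25.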

How the results depend on the processing

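The number of genes called under drought in DJ was 13186, and 13038 to 13623 with a single library omitted at a time (6045 to 6280 higher, 6993 to 7376 lower). For the DJ and ZH11 difference the range was 12110 to 12770 (4945 to 5290 and 6944 to 7754). Genes at 1 CPM or more differed by -1513 to -1252 per library. Same-numbered libraries deviated together with correlations of only 0.072, 0.048 and 0.087, although each correlated best with its own number, so the numbers were not taken as pairs. With the replicate block 6074 genes were higher and 6992 lower, and 5171 and 7093 for the DJ and ZH11 difference. Near-silent genes numbered 134 (normal) and 201 (drought) at 30 counts in place of 100, and 56 to 73 and 61 to 94 with a library left out. The summed share of the root nutrient transporter list, 0.0257% to 0.0354% in normal libraries, turned to a drought excess of 0.00544 with TMM-scaled CPM. Counts of list members called moved by over 1.5 times in 31 cases and stayed within that in 1313. Named genes kept direction and call in 2680 cases, lost the call in 10, gained it in 12 and reversed in 0. With library totals alone 4353 genes were higher and 10066 lower. Genes with few counts in 1 group have folds that depend on those counts.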
